A study of Gallus gallus with 6 samples.

Results

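The enzymes and subunits that move, mark and read nucleosomes were examined in Bach2 knockout cells of DT40, a chicken B cell line that keeps diversifying its immunoglobulin genes in culture. Members were all rows of the deposited count table whose gene symbol starts with SMARC, CHD, ARID, INO80, KDM, KMT, SETD, PRMT, BRD or KAT and a fitting number, with at least 20 counts summed over the 6 libraries. Of 17108 genes in the table, 71 matched and 66 were members. Besides chromatin remodellers and enzymes of histone methylation, these symbols also take in 4 lysine acetyltransferases, 3 readers of acetylated lysine and 6 ARID proteins that are not known as remodeller subunits. The member with the fewest counts was KAT2B with 128. The 5 rows that fell short (SMARCD1, KDM2A, KAT5, PRMT8 and a second row for SETD6) had 0 counts in every library. This allows up to 3 counts, or between 0.147 and 0.339 CPM, in a library. SMARCD1 is placed on chromosome 34 and KAT5 on chromosome 39. MCRS1, KANSL2 and MLL2 on chromosome 34 and DPF2 and NAA40 on chromosome 39, from the partner lists below, also had 0 counts throughout. Whether reads could be assigned to these rows was not tested, so 0 counts do not show that the genes were silent. CPM are counts scaled by the library total times the TMM normalisation factor of the library.

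The 2 groups were Bach2 knockout cells, with the genotype Bach2-/-, and wild type cells, named Clone 18, with 3 RNA libraries from independent cultures of each. Both were grown in the same medium with no further treatment named in the labels. The labels do not state how many knockout clones were used, and the knockout columns all carry the name Bach2ko1, so a difference due to Bach2 and one due to a clone cannot be told apart.

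Chromatin remodellers use the energy of ATP to slide, evict or exchange nucleosomes and so open or close DNA to transcription factors. Their catalytic ATPases work inside complexes: SWI/SNF or BAF complexes with ARID and SMARC subunits, ISWI complexes, CHD proteins and the INO80 complex. SET domain and PRMT enzymes add methyl groups to lysine and arginine of histone tails, KDM enzymes remove them from lysine, KAT enzymes add acetyl groups, and bromodomain proteins bind acetylated lysine. Bach2 is a repressor of transcription in B cells that competes with activators for the same DNA elements and holds back plasma cell genes.

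BACH2 itself (ENSGALG00000015605) had 34, 61 and 50 counts in knockout replicates 1, 2 and 3, against 135, 87 and 54 in wild type replicates 1, 2 and 3. In CPM it was 2.85 ± 0.457 in the knockout and 6.35 ± 0.251 in wild type (SD, n = 3 each), with no overlap and a log2 fold change of -1.16 ± 0.20 (SE, edgeR adjusted p = 0.00144). Library totals ran from 12934863 to 19316678 counts in the knockout and from 8999010 to 20647281 in wild type. B cell markers with a row in the table (11) were all detected and summed to between 2386 and 2534 CPM in knockout libraries and between 3026 and 3362 CPM in wild type libraries. Summed T cell markers (9 rows, CD4 and CD28 at 0) ran from 87.8 to 110 CPM in the knockout and from 145 to 181 CPM in wild type. Those of macrophages and granulocytes (5 rows) ran from 134 to 155 CPM in the knockout and from 177 to 181 CPM in wild type, while both erythroid rows and 5 of 6 fibroblast rows were at 0. The part of these differences in the results below was not tested, and in bulk RNA fewer cells of a kind and less RNA per cell cannot be told apart. The cultures are of a B cell line, and RNA of these markers does not show that cells of other kinds were present. Knockout replicate 1 stood apart from the other knockout libraries on the second principal component (13.5% of variance).

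Most of the chromatin genes were not called between the genotypes, and those that were differed by less than 2-fold. CHD2 rose most, followed by CHD7 and CHD1, while ARID1B fell most, followed by KAT2A and KDM7A. With genes of chromosome 3 taken relative to the median of that chromosome, ARID1B stood at -0.295. In that fit KAT2A and KDM7A, which lie on other chromosomes, stayed at -0.46 and -0.41, further below 0 than ARID1B. Of the 66 members, all of which passed the count filter, 8 rose and 5 fell in knockout cells (edgeR's two-sided quasi-likelihood test, Benjamini-Hochberg adjusted over 9159 genes, threshold 0.05), and 53 were not called. That is 12.1% higher and 7.58% lower, where 12.7% of all tested genes were called higher and 18.0% lower. Calls in either direction made up 19.7% of members, against 30.7% of all tested genes. At a log2 change of 0.58 or more either way, 2 members were called higher and 1 lower, where 2.80% of all tested genes were called higher and 10.0% lower by that much. Without the 2 members on chromosome 3, described below, 4.69% of 64 members were called lower, against 13.5% of the 7622 tested genes placed on other chromosomes. The median log2 fold change was -0.0055 for the members and -0.0014 for all tested genes. An absolute log2 fold change under 0.3 was found for 81.8% of members and 62.4% of all tested genes. Knockout and wild type libraries were fully separated for 45.5% of members, against 46.2% of all tested genes.

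The number of calls depended on single libraries, among members as among all tested genes. With 1 library left out, between 3 and 9 members were called higher and between 3 and 6 lower. The fewest higher calls came without wild type replicates 1 and 3 (3 each) and without wild type replicate 2 or knockout replicate 2 (4 each). Without wild type replicate 3, 3 members were called lower. Over all tested genes, the fits with 1 library left out called 639 to 1483 higher (1163 with all libraries) and 1177 to 1953 lower (1647). In all 13 alternative fits, 6 of the 13 called members kept their call: CHD2, CHD7, CHD1, ARID1B, KAT2A and KDM7A.

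**Figure D1:**
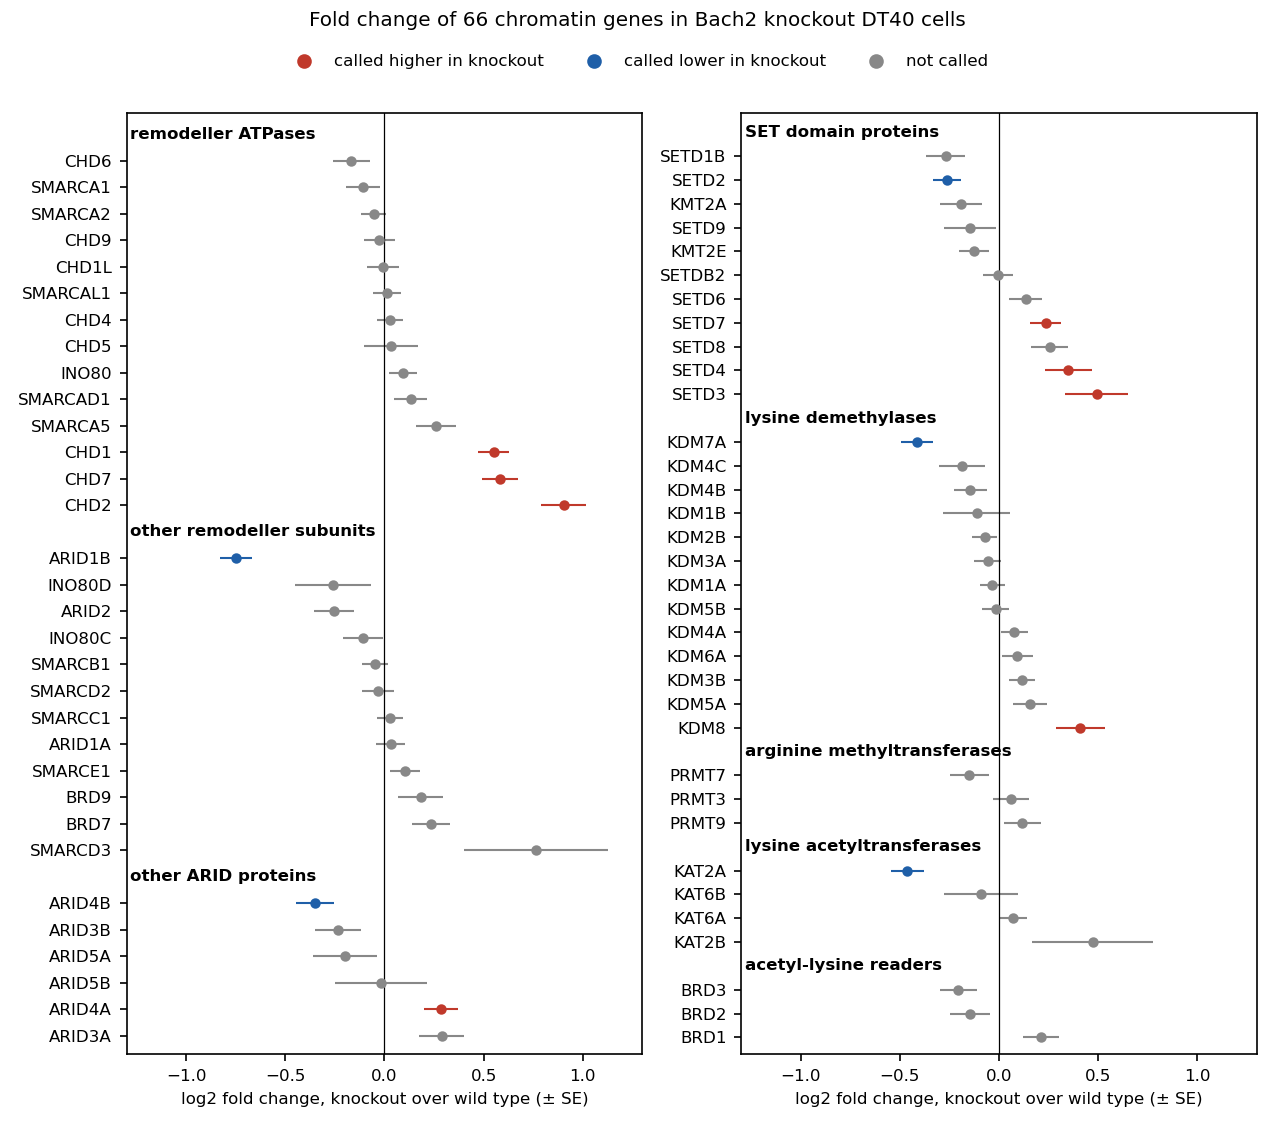
Log2 fold change (knockout over wild type, ± SE derived from the edgeR F test) of all 66 members, grouped by role and ordered by fold change within each role. Red points were called higher, blue points lower and grey points were not called at an adjusted p of 0.05. The values run from -0.75 for ARID1B to 0.90 for CHD2, and 22 members lie within 0.1 of 0.

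The members spanned a wide range of levels. Per length, in RPKM (reads scaled by gene length and sequencing depth), the median member stood at 17.5 over all 6 libraries, against 14.6 for all tested genes. SMARCC1, a scaffold subunit of BAF, was the most abundant at 323 RPKM, followed by the bromodomain protein gene BRD2 at 280.5 and the BAF core subunit gene SMARCB1 at 235. The ISWI ATPase gene SMARCA5 followed at 207.5 RPKM and SETD6 at 100.4 RPKM. At the low end, KAT2B had 0.339, SMARCD3 0.760 and ARID5B 0.773 RPKM, and for these 3 the counts per library were between 12 and 52. Together the members took 0.905% to 0.927% of all counts in knockout libraries and 0.881% to 0.911% in wild type libraries.

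**Figure D2:**
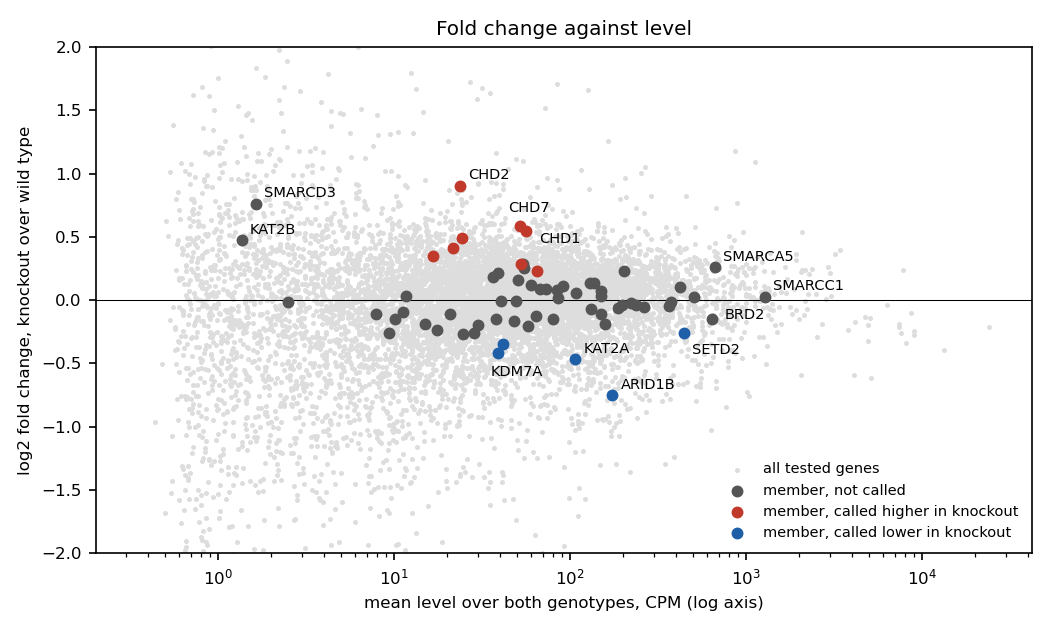
Log2 fold change (knockout over wild type) against mean level in CPM (log axis) for the 66 members, coloured by call, over all 9159 tested genes in light grey; 227 genes lie outside the plotted range of fold changes. The called members lie between the low-count members SMARCD3 and KAT2B on the left and SMARCA5, BRD2 and SMARCC1 on the right.

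Among the 14 remodeller ATPases, 3 rose (21.4%, against 12.7% of all tested genes) and 11 were not called. The 3 were all CHD genes. CHD2, a chromodomain remodeller that helps to load the histone variant H3.3, had 28.6, 30.8 and 32.4 CPM in knockout replicates 1, 2 and 3, against 14.8, 16.1 and 18.7 CPM in wild type replicates 1, 2 and 3. Every knockout library lay above every wild type library, and the difference of 1.87-fold exceeded the spread within either genotype. On the log2 scale it was higher by 0.90 ± 0.11 (SE, edgeR adjusted p = 0.000205). CHD7, a remodeller of the third CHD subfamily that acts at enhancers, had 65.9, 59.0 and 63.3 CPM in knockout replicates 1, 2 and 3, against 44.7, 37.6 and 43.1 CPM in the wild type ones. It was 1.5-fold higher without overlap (0.58 ± 0.09, edgeR adjusted p = 0.000746).

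CHD1, a chromodomain protein that binds histone H3 methylated at lysine 4, had 71.3, 67.4 and 62.8 CPM in knockout replicates 1, 2 and 3, against 44.2, 46.1 and 47.4 CPM in the wild type ones. The groups did not overlap, and the fold was 1.46 (log2 0.55 ± 0.08, SE, edgeR adjusted p = 0.000518). Its row carries 2 NCBI genes, LOC374195 and CHD1, which the GRCg7b gene table puts on chromosomes W and Z. Birds carry a copy of this gene on each sex chromosome, and how reads were divided between such copies was not stated. The rows of CHD4, ARID1A and SETD3 also carry a second NCBI gene.

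CHD4, the ATPase of the NuRD complex and the most abundant CHD gene at 80.5 RPKM, had 524.5, 504 and 506 CPM in knockout replicates 1, 2 and 3, against 531, 484 and 491 CPM in wild type replicates 1, 2 and 3. The genotypes overlapped, and the 95% interval of its log2 fold change ran from -0.12 to 0.17. CHD1L, CHD5, CHD6 and CHD9 had log2 fold changes of -0.0052, 0.035, -0.17 and -0.026 and were not called, although CHD6 lay lower without overlap. In all, 3 of 8 CHD genes rose (37.5%, against 12.7% of all tested genes) and 5 were not called.

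The ATPases of the other families were not called. SMARCA2, an ATPase of BAF, had 271, 257 and 251 CPM in knockout replicates 1, 2 and 3, against 272, 264 and 273 CPM in the wild type ones, and its interval ran from -0.20 to 0.087 (log2, 95%). SMARCA5 had 864, 675 and 645 CPM in knockout replicates 1, 2 and 3, against 587, 612 and 626.5 CPM in wild type replicates. All knockout libraries were above the wild type ones, with replicate 1 far above the other knockout libraries. On the log2 scale the difference was 0.26 ± 0.10 (edgeR adjusted p = 0.0765), 0.12 without knockout replicate 1 and 0.36 without knockout replicate 3, where the adjusted p was 0.0177. With all libraries it was called by DESeq2 (adjusted p = 0.0403), with library totals (0.0457) and with no filter (0.0368). SMARCA1, the other ISWI ATPase gene, had 146, 145 and 141 CPM in knockout replicates, against 135, 163 and 168.9 CPM in wild type ones, which overlap (-0.11 ± 0.09, edgeR adjusted p = 0.373). INO80, the ATPase of the complex of that name, had 72.0, 70.4 and 67.7 CPM in knockout replicates 1, 2 and 3, against 64.0, 66.8 and 66.4 CPM in the wild type ones. It lay higher without overlap, by a log2 fold change of 0.092 that was not called (edgeR adjusted p = 0.354). SMARCAD1 and SMARCAL1, remodeller-like ATPases of DNA repair and replication, stood at 0.13 and 0.014 and were not called.

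In the BAF complex, ARID1B fell and the other subunit genes among the members were not called. ARID1B, a DNA-binding subunit that takes the same place in the complex as ARID1A, had 118, 136 and 135.5 CPM in knockout replicates 1, 2 and 3, against 234, 215 and 205 CPM in wild type replicates 1, 2 and 3. Every knockout library was far below every wild type library, and the gene was 1.68-fold lower (log2 -0.75 ± 0.08, SE, edgeR adjusted p = 7.52e-05). ARID1A had 149, 143.5 and 162 CPM in the knockout replicates, against 150, 144 and 151 CPM in the wild type ones, with overlap and an interval from -0.13 to 0.19 (log2, 95%). The core subunit genes SMARCC1, SMARCB1, SMARCE1 and SMARCD2 had log2 fold changes of 0.027, -0.048, 0.10 and -0.034, and none of these 4 was called. For SMARCC1 the interval ran from -0.11 to 0.17 and for SMARCB1 from -0.19 to 0.098.

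ARID2, which defines the PBAF form of the complex, had 25.6, 26.8 and 25.7 CPM in knockout replicates 1, 2 and 3, against 28.4, 31.0 and 34.5 CPM in wild type ones. It lay lower without overlap but was not called (-0.26 ± 0.10, edgeR adjusted p = 0.0756). BRD7, a PBAF subunit gene, had 257.5, 204 and 200 CPM in knockout replicates 1, 2 and 3, against 183, 192 and 188 CPM in the wild type ones. It was not called (0.23 ± 0.10, edgeR adjusted p = 0.0885), stood at 0.11 without knockout replicate 1 and was called without knockout replicate 3 (0.32, adjusted p = 0.0283). BRD9, of the smaller non-canonical BAF form, stood at 0.18 and was not called. SMARCD3 had 20, 43 and 41 counts in knockout replicates and 17, 15 and 17 in wild type ones, and was not called, with a 95% interval of its log2 fold change from -0.040 to 1.56. INO80C and INO80D, subunits of the INO80 complex, stood at -0.11 and -0.26 without a call.

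Because ARID1A and ARID1B exclude each other from a complex, their relation to each other was examined per length. ARID1B had 18.9, 21.8 and 21.7 RPKM in knockout replicates 1, 2 and 3, against 36.9, 33.6 and 32.03 RPKM in wild type replicates 1, 2 and 3. ARID1A had 22.2, 21.3 and 24.1 RPKM in the knockout replicates, against 21.9, 20.9 and 21.9 RPKM in the wild type ones. In the knockout the log2 ratio of ARID1B to ARID1A averaged -0.12 ± 0.13, and in wild type 0.66 ± 0.10 (SD, n = 3 each). ARID1B RNA thus exceeded that of ARID1A in all 3 wild type libraries, and in knockout libraries the genes were at similar levels. The ratio differed by -0.78 on the log2 scale, with an exact two-sided permutation p of 0.1, the smallest that 3 libraries against 3 can give, and by -0.85 to -0.72 with 1 library left out.

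ARID1B is placed on chromosome 3 by the gene table, as is ARID4B, and most genes of that chromosome fell in knockout cells. The 688 tested genes of chromosome 3 had a median log2 fold change of -0.45, with 70.3% called lower and 1.16% higher. Relative to that median, ARID1B stood at -0.295 and was still called (edgeR adjusted p = 0.022), while ARID4B stood at 0.10 and was not (adjusted p = 0.457). The other 64 members had a median of 0.0042, against 0.028 for all tested genes placed on other chromosomes.

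**Figure D3:**
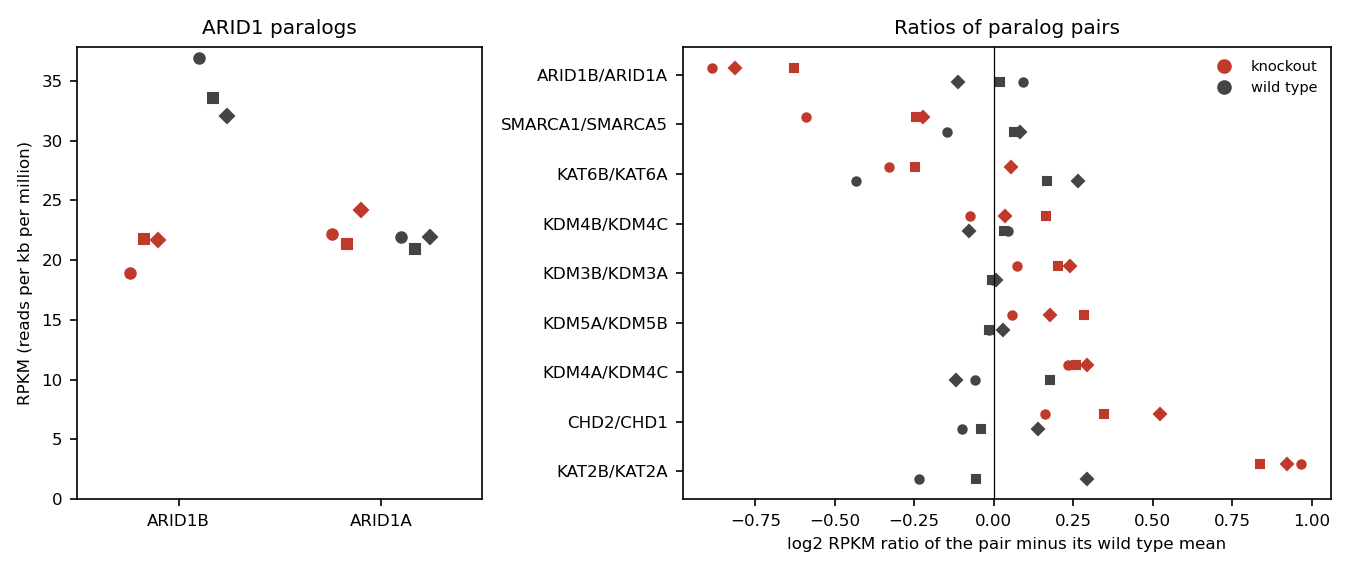
Left, RPKM of ARID1B and ARID1A in each library (red knockout, dark grey wild type; circle, square and diamond for replicates 1, 2 and 3). Right, the log2 RPKM ratio of 9 pairs of related members in each library, drawn relative to the pair's wild type mean. For 7 pairs the genotypes do not overlap, with the widest gaps for KAT2B/KAT2A and ARID1B/ARID1A. The share for other pairs was not computed.

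Of 26 listed pairs of related genes, 9 could be measured, and 7 had ratios that did not overlap between the genotypes. Levels of single genes did not overlap for 46.2% of all tested genes, and the share for other pairs was not computed. With 3 libraries against 3, each of these 7 pairs reached the smallest possible exact permutation p of 0.1. After Benjamini-Hochberg adjustment over the 9 pairs this was 0.129, so the design cannot call any of them. The log2 ratio of CHD2 to its relative CHD1 averaged -0.43 ± 0.18 in the knockout and -0.78 ± 0.12 in wild type (SD, n = 3 each), a difference of 0.34. The ratio of SMARCA1 to SMARCA5 was lower by 0.35 on the log2 scale in the knockout, at -3.59 ± 0.21, against -3.24 ± 0.13 in wild type, and by 0.23 without knockout replicate 1. Smaller shifts of 0.17, 0.17 and 0.26 were seen in KDM3B over KDM3A, KDM5A over KDM5B and KDM4A over KDM4C. The pairs KDM4B and KDM4C (0.041, exact p = 0.6) and KAT6B and KAT6A (-0.17, exact p = 0.5) overlapped.

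Of the 6 ARID genes outside the remodellers, 1 fell, 1 rose (16.7% each) and 4 were not called. Over all tested genes, 12.7% were called higher and 18.0% lower. ARID4B, a subunit of the SIN3 corepressor complex, had 37.2, 38.2 and 34.3 CPM in knockout replicates 1, 2 and 3, against 42.9, 45.5 and 51.9 CPM in the wild type ones, a fall of 0.35 ± 0.10 on the log2 scale (edgeR adjusted p = 0.0183). Its relative ARID4A, of the same complex, rose, with 63.5, 55.3 and 54.9 CPM in knockout replicates 1, 2 and 3, against 47.5, 48.9 and 45.7 CPM in wild type ones (0.28 ± 0.08, edgeR adjusted p = 0.0265). Neither overlapped between genotypes, and both calls were lost with some library left out. For ARID4B this was so without knockout replicate 3 (adjusted p = 0.0579) and without wild type replicate 2 (0.0527) or 3 (0.0923). For ARID4A it was so without wild type replicate 1 (0.0797), 2 (0.0657) or 3 (0.0996).

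ARID3A, a B cell factor that binds immunoglobulin heavy chain regulatory DNA, had 49.9, 59.6 and 69.9 CPM in knockout replicates 1, 2 and 3, against 50.8, 49.7 and 46.4 CPM in the wild type ones. Knockout replicate 1 lay within the wild type range and the other knockout libraries above it. The gene was not called (0.29 ± 0.11, edgeR adjusted p = 0.0769), and without knockout replicate 1 it was (0.40, adjusted p = 0.00121). With all libraries it was also called by DESeq2, with library totals and with no filter. ARID3B, ARID5A and ARID5B stood at -0.24, -0.20 and -0.018 and were not called.

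The 11 SET domain genes included writers of several histone marks. Of the 11 genes, 3 rose (27.3%), 1 fell (9.09%) and 7 were not called, where 12.7% of all tested genes were called higher and 18.0% lower. SETD2, the main enzyme of trimethylation at lysine 36 of histone H3, fell. It had 382, 397 and 427 CPM in knockout replicates 1, 2 and 3, against 490.5, 454 and 502 CPM in wild type replicates 1, 2 and 3, without overlap (log2 -0.26 ± 0.07, SE, edgeR adjusted p = 0.0179). The call was lost without knockout replicate 2 (adjusted p = 0.07) and without wild type replicate 1 (0.0679) or 3 (0.0942).

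SETD3, an enzyme that methylates a histidine of actin, had 36.6, 26.2 and 23.3 CPM in knockout replicates 1, 2 and 3, against 22.2, 19.4 and 18.9 CPM in wild type ones, and rose (0.49 ± 0.16, edgeR adjusted p = 0.038). Knockout replicate 1 was its highest library by far, and without it the log2 fold change was 0.28 (adjusted p = 0.0519). The call was also lost without knockout replicate 2 (0.0546) and without wild type replicate 1 (0.0735), 2 (0.116) or 3 (0.115). SETD4 had 19.1, 17.6 and 19.4 CPM in knockout replicates 1, 2 and 3, against 15.6, 15.3 and 12.8 CPM in wild type ones (0.35 ± 0.12, edgeR adjusted p = 0.0461). SETD7, which monomethylates lysine 4 of histone H3 and several other proteins, had 65.2, 73.2 and 72.3 CPM in knockout replicates 1, 2 and 3, against 57.3, 63.2 and 58.9 CPM in wild type ones (0.23 ± 0.08, edgeR adjusted p = 0.0447). SETD3, SETD4 and SETD7 lay higher in the knockout without overlap. SETD4 and SETD7 kept their calls without knockout replicate 1 and lost them without any other single library, with adjusted p between 0.0699 and 0.160 for SETD4 and between 0.0674 and 0.151 for SETD7. Both calls were also lost with a mean RPKM of at least 1, the replicate block and chromosome 3 taken relative to its median, and that of SETD4 by DESeq2, at adjusted p between 0.0501 and 0.0682.

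The writers of lysine 4 methylation that belong to COMPASS-type complexes were not called. KMT2A, known as MLL, had 124, 165 and 156 CPM in knockout replicates 1, 2 and 3, against 178, 153 and 177 CPM in wild type ones, with overlap (-0.19 ± 0.11, edgeR adjusted p = 0.200). SETD1B had 21.4, 23.4 and 21.8 CPM in knockout replicates, against 25.3, 27.2 and 28.2 CPM in wild type ones, lower without overlap but short of the threshold (-0.27 ± 0.10, edgeR adjusted p = 0.0581). KMT2E, a relative not known as an active enzyme, stood at -0.13. SETD8, the enzyme that monomethylates lysine 20 of histone H4, had 63.4, 58.9 and 55.7 CPM in knockout replicates, against 54.2, 44.4 and 50.1 CPM in wild type ones, higher without overlap and not called (0.25 ± 0.09, edgeR adjusted p = 0.0603). It was called with library totals (adjusted p = 0.037) and without knockout replicate 3 (0.0344). SETDB2, SETD6 and SETD9 stood at -0.0058, 0.13 and -0.15 and were not called.

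**Figure D4:**
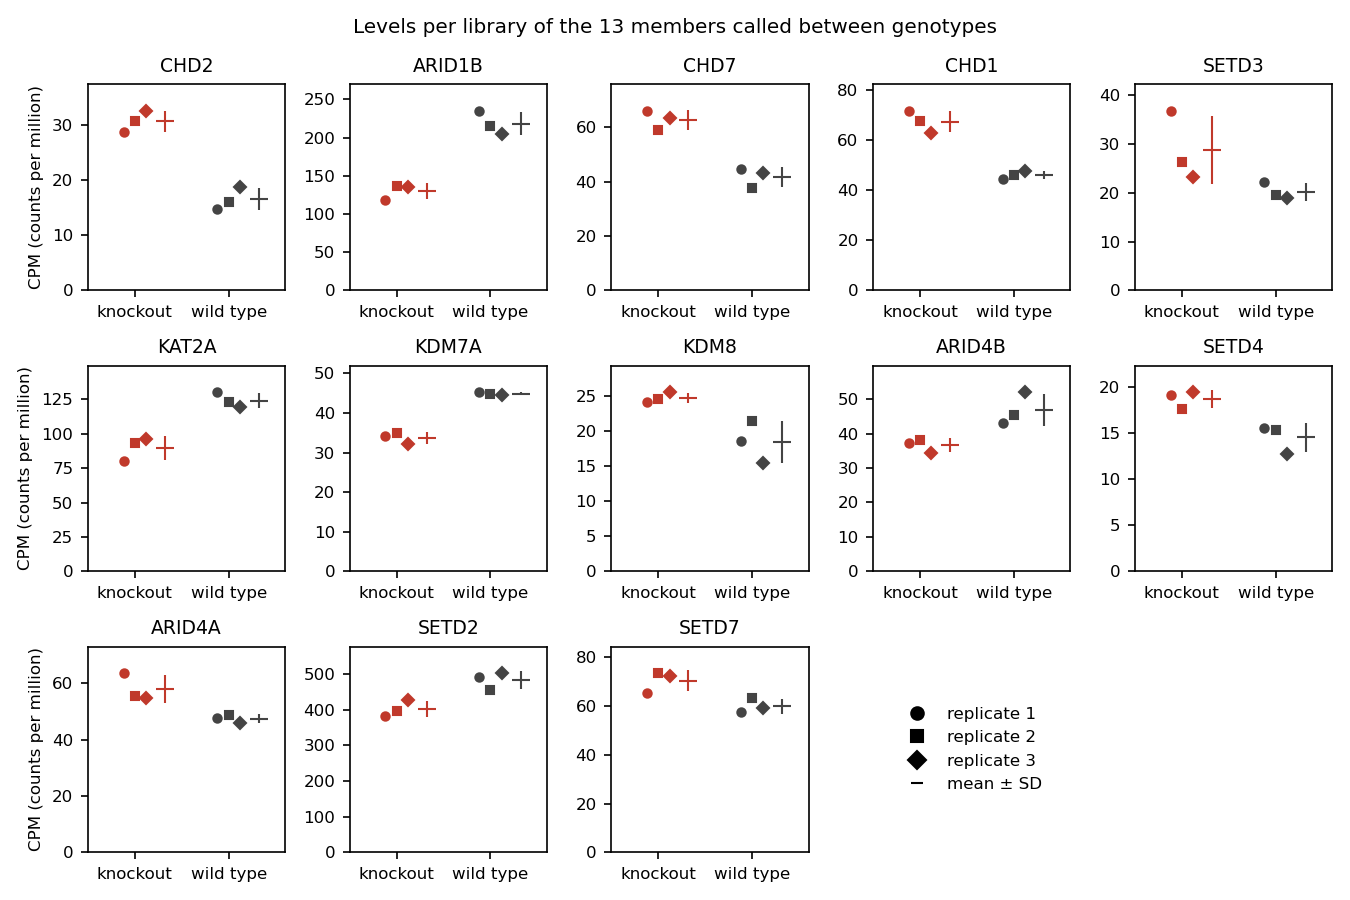
CPM in each library for the 13 members called between the genotypes, ordered by absolute log2 fold change (red knockout, dark grey wild type; circle, square and diamond for replicates 1, 2 and 3; bars give mean ± SD, and every axis starts at 0). In each panel the 3 knockout libraries lie wholly above or wholly below the 3 wild type libraries, and for SETD3 knockout replicate 1 stands apart.

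Among the lysine demethylases, 1 of 13 rose, 1 fell (7.69% each) and 11 were not called, with a median log2 fold change of -0.034. Over all tested genes, 12.7% were called higher and 18.0% lower. KDM7A, which removes dimethylation from lysines 9 and 27 of histone H3, had 34.1, 34.9 and 32.1 CPM in knockout replicates 1, 2 and 3, against 45.2, 44.8 and 44.5 CPM in wild type replicates 1, 2 and 3. The wild type libraries lay within 1 CPM of each other, and every knockout library was below them (log2 -0.41 ± 0.08, SE, edgeR adjusted p = 0.00311). KDM8, also named JMJD5, had 24.2, 24.6 and 25.6 CPM in knockout replicates 1, 2 and 3, against 18.7, 21.5 and 15.5 CPM in wild type ones, and rose without overlap (0.41 ± 0.12, edgeR adjusted p = 0.0273). Its call was lost without knockout replicate 2 (adjusted p = 0.0679) and without wild type replicate 1 (0.088) or 3 (0.101).

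KDM1A, known as LSD1, which demethylates lysine 4 of histone H3, had 197, 196 and 194 CPM in knockout replicates 1, 2 and 3, against 202.5, 195 and 204 CPM in wild type ones, and its 95% interval ran from -0.17 to 0.10 (log2). KDM5B, another lysine 4 demethylase gene and the most abundant of the family per length at 56.4 RPKM, stood at -0.017, with an interval from -0.17 to 0.14. KDM5A had 50.2, 57.0 and 54.0 CPM in knockout replicates 1, 2 and 3, against 51.5, 45.7 and 47.1 CPM in wild type ones, which overlap (0.16 ± 0.09, edgeR adjusted p = 0.187). KDM6A, which demethylates lysine 27 of histone H3, had 73.9, 75.6 and 78.1 CPM in knockout replicates 1, 2 and 3, against 77.3, 67.7 and 68.2 CPM in wild type ones, also with overlap (0.091 ± 0.08, edgeR adjusted p = 0.407).

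For lysine 9 demethylation, KDM3A, KDM3B, KDM4A, KDM4B and KDM4C stood at -0.058, 0.11, 0.077, -0.14 and -0.19, and none of the 5 was called. KDM3B and KDM4A lay higher and KDM4C lower without overlap. KDM2B, a demethylase for lysine 36 that also recruits a Polycomb complex to CpG islands, stood at -0.073 and KDM1B at -0.11, neither called.

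Among the 4 acetyltransferase genes, KAT2A fell (25%, against 18.0% of all tested genes called lower) and the others were not called. KAT2A, known as GCN5, the catalytic subunit of the coactivator complex SAGA, had 80.0, 93.3 and 96.2 CPM in knockout replicates 1, 2 and 3, against 130, 123 and 119 CPM in wild type replicates 1, 2 and 3. Every knockout library lay below every wild type library (log2 -0.46 ± 0.08, SE, edgeR adjusted p = 0.00183). KAT2B, its close relative, had only 19, 28 and 33 counts in knockout replicates and 21, 15 and 12 in wild type ones. In CPM, KAT2B was at 1.45, 1.55 and 1.69 in the knockout replicates and 1.03, 1.10 and 1.35 in the wild type ones, a higher level without overlap that was not called (0.47 ± 0.31, edgeR adjusted p = 0.270). Per length, the log2 ratio of KAT2B to KAT2A was -6.74 ± 0.066 in the knockout and -7.65 ± 0.27 in wild type (SD, n = 3 each), so that KAT2A had the higher level in every library. KAT6A and KAT6B stood at 0.072 and -0.090 and were not called.

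The bromodomain readers and the arginine methyltransferases gave 0 calls among 6 genes by edgeR, where 30.7% of all tested genes were called. BRD2, the second most abundant member per length, had 510, 612 and 703 CPM in knockout replicates 1, 2 and 3, against 670, 684 and 667 CPM in wild type ones (-0.15 ± 0.10, edgeR adjusted p = 0.297). Its knockout libraries were spread from below to above the narrow wild type range, and without knockout replicate 3 it was called lower (-0.25, adjusted p = 0.0434). BRD3 stood at -0.21 and was called without knockout replicate 1 (-0.28, adjusted p = 0.0121), and BRD1 stood at 0.21, higher without overlap. PRMT3, PRMT7 and PRMT9 had log2 fold changes of 0.061, -0.15 and 0.12 with overlapping libraries. At an unadjusted p under 0.05, BRD1 and BRD3 were the ones of the 6 that passed, and the DESeq2 test also gave 0 calls among them.

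Partner genes of these complexes, in 10 lists with 187 symbols, gave 133 further tested genes. Of these, 25 rose, 23 fell and 85 were not called, with a median log2 fold change of 0.041. That is 18.8% higher and 17.3% lower, where 12.7% of all tested genes were called higher and 18.0% lower. Among the 14 that lie on chromosome 3, 10 fell, where 70.3% of all tested genes of that chromosome were called lower. With genes of that chromosome taken relative to its median, 15 of all 133 partner genes were called lower, against 1231 of the 9159 tested genes. The counts of higher and lower partner genes ran from 8 to 29 and from 15 to 30 with 1 library left out. The fewest higher calls came without wild type replicate 2 (8), and 14 and 12 came without wild type replicates 1 and 3. Without wild type replicate 3 there were 15 lower calls. Over all tested genes, the fits with 1 library left out called 639 to 1483 higher and 1177 to 1953 lower.

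Of 10 further BAF partners, 5 fell, 1 rose and 4 were not called, and 3 of the 5 lie on chromosome 3, where 70.3% of all tested genes were called lower. Over all tested genes the share called lower was 18.0%. ACTB, the actin that sits in the complex as well as in the cytoskeleton, had 3992, 3940 and 4210 CPM in knockout replicates 1, 2 and 3, against 5852, 6291 and 6447 CPM in the wild type ones (-0.61 ± 0.07, edgeR adjusted p = 8.47e-05). DPF3, an accessory subunit, fell by 1.33 ± 0.39 on the log2 scale to 0.776 ± 0.195 CPM in the knockout, against 2.01 ± 0.80 CPM in wild type (SD, n = 3 each). The call of DPF3 was lost without knockout replicate 2 or 3 or wild type replicate 3, with adjusted p up to 0.108. Its counts were low, at 13, 13 and 12 in knockout replicates 1, 2 and 3, against 32, 21 and 26 in wild type ones. On chromosome 3, GLTSCR1L fell by 0.79 ± 0.13, PHF10, a PBAF subunit, by 0.50 ± 0.07 and BCL11A, a B cell transcription factor that associates with BAF, by 0.47 ± 0.08. Relative to the median of that chromosome they stood at -0.33, -0.049 and -0.018, and none of the 3 was called. BCL7A rose by 0.39 ± 0.08.

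The list of other acetyltransferases and their partners holds subunits of SAGA, the complex in which KAT2A works, among which calls went both ways. SUPT7L, on chromosome 3, had 22.1, 27.6 and 30.1 CPM in knockout replicates 1, 2 and 3, against 50.6, 50.2 and 52.7 CPM in wild type ones, and fell by 0.94 ± 0.11 on the log2 scale (edgeR adjusted p = 0.000138). It stood at -0.48 relative to its chromosome. ATXN7, named after its values were seen, had 45.5, 45.4 and 45.9 CPM in the knockout replicates, against 81.7, 89.6 and 90.5 CPM in wild type ones (-0.93 ± 0.07, edgeR adjusted p = 8.85e-06). TADA1, CCDC101 and SUPT20H, also named after their values were seen, rose by 0.38, 0.33 and 0.28, of which CCDC101 and SUPT20H lost the call without wild type replicate 2 and CCDC101 without wild type replicate 3 (adjusted p up to 0.0679). From the same list, TADA2A, TADA2B, TADA3, USP22, ENY2 and SUPT3H, at -0.11, 0.11, -0.22, 0.094, 0.18 and -0.13, were not called. In the whole list, 7 of 37 rose (18.9%), 8 fell (21.6%) and 22 were not called. Over all tested genes, 12.7% were called higher and 18.0% lower. NCOA1, a coactivator of nuclear receptors on chromosome 3, fell to 59.0 ± 8.46 CPM in the knockout, against 165 ± 14.2 CPM in wild type (SD, n = 3 each), and stood at -1.03 relative to its chromosome. CDYL, a chromodomain protein gene, was lower at 0.658 ± 0.297 CPM in the knockout, against 2.81 ± 0.62 CPM in wild type, a fall of 2.03 ± 0.38 on the log2 scale. Its counts were low, at 8, 7 and 19 in knockout replicates 1, 2 and 3, against 47, 36 and 31 in wild type ones. At a mean of 0.340 RPKM, CDYL was not tested in the fit with a mean RPKM of at least 1.

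Of 17 partners of INO80, SRCAP and TIP60, 4 rose (23.5%, against 12.7% of all tested genes) and 13 were not called. The 4 were MRGBP (0.40), ACTR5 (0.33), ACTR6 (0.25) and YY1 (0.24), the last named after its values were seen. ACTR5, ACTR6 and YY1 lost the call without wild type replicate 2 or 3 or knockout replicate 2. ACTR6, YY1 and MRGBP lost it without wild type replicate 1 (edgeR adjusted p up to 0.104 for the 4). Of 11 COMPASS partners, 5 rose (45.5%, against 12.7% of all tested genes) and 1 fell. PSIP1 (0.41) and BOD1L1 (0.31) were the highest of the 5, while WDR5, PAXIP1 and HCFC2, at 0.29, 0.28 and 0.28, were named after their values were seen. Of those 5, BOD1L1 kept its call in every fit and the others lost it without wild type replicate 2 or 3, among other libraries (adjusted p up to 0.127). DPY30, on chromosome 3, fell by 0.41, which is 0.046 above the chromosome's median.

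Among 11 ISWI partners BAZ2B fell, to 1.75 ± 0.448 CPM in the knockout, against 5.05 ± 0.738 CPM in wild type (SD, n = 3 each; log2 -1.50 ± 0.26, edgeR adjusted p = 0.00159). It rested on 24, 23 and 42 counts in knockout replicates 1, 2 and 3, against 91, 66 and 52 in wild type ones. At a mean of 0.50 RPKM, BAZ2B was not tested in the fit with a mean RPKM of at least 1. POLE3 rose (0.30), and its call was lost without wild type replicate 1 or 2 (adjusted p up to 0.0949). Of 5 NuRD partners, GATAD2A rose (0.27) and CDK2AP1 (-0.46) and MTA3 (-0.34, on chromosome 3) fell. Relative to the median of that chromosome MTA3 stood at 0.11 and was not called (adjusted p = 0.417). CDK2AP1 and MTA3 lost their calls without any single library other than knockout replicate 1, and GATAD2A without wild type replicate 2 or 3 (adjusted p up to 0.114 for CDK2AP1). Of the ISWI partners 9.09% rose and 9.09% fell, and of the NuRD partners 20% rose and 40% fell. Over all tested genes, 12.7% were called higher and 18.0% lower.

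Of 18 other lysine methyltransferases, 2 rose (11.1%), 5 fell (27.8%) and 11 were not called. Over all tested genes, 12.7% were called higher and 18.0% lower. MECOM rose by 0.65 ± 0.13 and WHSC1 by 0.31. PRDM16 fell by 0.81 ± 0.27 and SMYD2, on chromosome 3, by 0.45 ± 0.09, a value of -0.0021 relative to the chromosome's median. The counts of PRDM16 were low, at 25, 38 and 38 in knockout replicates 1, 2 and 3, against 74, 35 and 40 in wild type ones (mean 0.344 RPKM). NSD1, PRDM10 and EHMT1 fell by 0.36, 0.29 and 0.25 and, like WHSC1, were named after their values were seen. PRDM16 and EHMT1 lost their calls without 4 libraries each, NSD1 without wild type replicate 1 or 3, and PRDM10 without knockout replicate 2 or wild type replicate 3. With the replicate block the calls of PRDM16 and EHMT1 were also lost, as were that of PRDM16 by DESeq2 and that of EHMT1 with library totals. Among 11 other demethylases and jumonji proteins, JARID2, a partner of Polycomb complexes, rose by 0.46 ± 0.08 and kept its call in all 13 alternatives. PHF2 rose by 0.36, a call lost without knockout replicate 2 or any wild type library, and the other 9 were not called. RIOK1 (0.39) rose among 5 partners of arginine methylation. Among 10 tested bromodomain neighbours PHIP, on chromosome 3, fell by 0.50, a value of -0.044 relative to the chromosome's median, while ZMYND11 rose by 0.30, a call lost without wild type replicate 2 or 3 (adjusted p up to 0.118).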

How the data were processed

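RNA of 3 Bach2 knockout and 3 wild type DT40 cultures was sequenced as paired ends. The authors deposited raw counts per gene and RPKM values in tables of the whole series. The build galGal4 is named in the submitters' processing notes, as are the tools Subread 1.5.0, TopHat2 2.1.0, limma, edgeR and bcl2fastq 1.8.4, with no role given. The annotation, gene lengths, and whether counting used strand are not given in the sources used here, so overlapping, antisense and near-identical genes are uncertain. The deposited RPKM equalled the count times a constant per gene and per library.

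The deposited counts of genes that passed filterByExpr (9159 of 17108) were fitted with edgeR 4.0.16 in R 4.3.3 (TMM, quasi-likelihood F test, two-sided, Benjamini-Hochberg over all tested genes, threshold 0.05), with genotype as the only term. CPM values are counts over effective library sizes, which are library totals times their TMM factors. DESeq2 1.42.0 was an alternative, beside library totals without TMM, DESeq2 size factors, no filter and a mean RPKM of at least 1. Further alternatives were leaving out each library, a replicate block, and chromosome 3 relative to its median. Ratios of related genes were compared by exact two-sided permutation. Tested on simulated data for this comparison (9159 genes), the fit called 80.6% of 67 genes changed 1.5-fold and 11 of 8959 unchanged ones. The simulation gave every gene the same spread, set no library apart and changed few genes, so recovery in the real data may differ. No 2 libraries of a genotype agreed within sampling noise. Chromosomes come from the NCBI gene table of GRCg7b, which holds 13400 of 14007 NCBI gene IDs and all 66 members.

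The members, gene lists and tests were chosen with earlier results of these data known. Members named in the text were those called with a log2 change of 0.58 or more either way, up to 2 called per family, a fixed list of catalytic members, and related pairs, and any other member by its fold change. Partner genes were the 3 called with the largest change per list and every called BAF partner, and others are marked as named after their values were seen or as not called. Some listed catalytic genes were not analysed here. P-values measure the spread between these cultures. The limits given for 0 counts cover counting error only, not whether reads could be assigned to a row.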

Additional observations from a re-analysis of the deposited data

How the results depend on the processing

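Across 13 alternatives, 52 of 66 members kept the sign of their log2 fold change, 6 of the 13 called members kept their call in all, and 46 of the 53 uncalled members were called in none. With 1 library left out, 3 to 9 members were called higher (8 with all libraries) and 3 to 6 lower (5), 639 to 1483 of all tested genes higher (1163) and 1177 to 1953 lower (1647), and 8 to 29 partner genes higher (25) and 15 to 30 lower (23). Relative to the median of chromosome 3, 15 partner genes were called lower and ARID4B stood at 0.10, reversed. The median log2 fold change of the members (-0.0055) was 0.030 with library totals, where the median of all genes was 0.034, and ran from -0.0099 to 0.03 with 1 library left out. KDM1A stood at 0.0012 with library totals. The difference in the log2 ratio of KDM4B to KDM4C (0.041) ran from -0.021 to 0.099 with 1 library left out. The cause was not tested. Same-numbered libraries did not deviate together (r = -0.0003, 0.0958 and -0.0397), and with the replicate block 6 members were called higher and 5 lower, all among the 13. Over all tested genes, the fit with the replicate block called 1009 higher and 1567 lower. The fewest counts, 128 to 236 in all, lay behind KAT2B, SMARCD3 and ARID5B.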
